A study of Mus musculus with 18 samples.

Results

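Glutathione transferases and glutathione peroxidases are enzymes that use the tripeptide glutathione to deal with reactive molecules, and 10 of their genes were followed through the growth of mouse intestinal organoids, small hollow bodies of gut epithelium kept alive in a gel. The genes were taken by symbol from the deposited table of 24116 genes. They are the Alpha class transferases Gsta1, Gsta2, Gsta3 and Gsta4, the Mu class transferases Gstm1 and Gstm3, the Pi class transferase Gstp1, the Theta class transferase Gstt1, and the peroxidases Gpx1 and Gpx2. Each symbol matched 1 row, and all 10 genes passed the filter on low values, which kept 11111 genes. The organoids came from C57BL/6 wild-type mice aged 8 weeks, and 3 lines were used. There were 18 libraries, 3 for each of days 0, 1, 2, 3, 4 and 5, each from 30 pooled wells.

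From day 0 on, all cultures shared a base medium with EGF, Noggin, R-spondin, the supplements B27 and N2, and 1 mM N-acetylcysteine, a source of the cysteine from which glutathione is built. Before day 0 the lines were kept in a commercial organoid growth medium. Until day 1 the base medium also held the GSK3 inhibitor CHIR99021 at 3 µM, and Y-27632, a ROCK inhibitor, was present at 10 µM until day 3 together with 20% of medium conditioned by Wnt3a-producing cells. Day of growth and medium therefore changed together and cannot be told apart. Replicate 1 of each day was not treated with DNase, and replicates 2 and 3 were. By the titles, replicate 1 is the line of mouse 1 and replicate 3 that of mouse 3 throughout, while replicate 2 is mouse 2 except at days 1 and 2, where it is mouse 1.

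As background, cytosolic glutathione transferases join glutathione to electrophilic compounds, which makes the products soluble and ready for export. The Alpha class acts on lipid peroxidation products and also has peroxidase activity towards lipid hydroperoxides, and Gsta4 is known for conjugating the aldehyde 4-hydroxynonenal. The Mu, Pi and Theta classes differ in the compounds they accept. Glutathione peroxidases reduce hydrogen peroxide and organic hydroperoxides to water and alcohols. Gpx1 is the cytosolic form found in nearly all cells, and Gpx2 is the gastrointestinal form, known for high expression at the crypt base of the intestine. In the small intestine many of these enzymes are abundant in absorptive cells, which meet foreign compounds from food.

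Gpx1 and Gpx2 are both selenoproteins, in which a TGA codon that elsewhere ends translation is read as the amino acid selenocysteine at the catalytic site. The stretches around that codon are shown because they mark what the 2 peroxidases share. They are coding strand sequences of the GRCm38 (mm10) transcripts, with TGA in capitals, at codon 47 of Gpx1 (chr9:108339427-108339477, plus strand) and codon 40 of Gpx2 (chr12:76795232-76795282, minus strand).
Gpx1: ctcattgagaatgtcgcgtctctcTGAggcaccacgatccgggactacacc
Gpx2: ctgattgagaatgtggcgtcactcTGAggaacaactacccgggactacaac
Over their aligned coding sequences these 2 genes were identical at 68.13% of bases. Gpx2 shared 18.9% of its 50-base transcript windows with the processed copy Gpx2-ps1, which stood at 2.08 to 22.1 RPKM, and Gpx1 shared none with another gene. RPKM are read counts scaled by gene length and by the reads of the library.

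Near-identical pairs lie among the transferases, and how far the deposited values separate them is not stated. Gsta1 and Gsta2, on chromosome 9, were identical at 97.91% of 669 aligned coding bases. The 60 coding bases of a single exon with the most differences between them show this, with the 5 differing bases in capitals (Gsta1, chr9:78241561-78241620, plus strand, and Gsta2, chr9:78332125-78332184, minus strand).
Gsta1: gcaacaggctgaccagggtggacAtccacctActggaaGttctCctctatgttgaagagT
Gsta2: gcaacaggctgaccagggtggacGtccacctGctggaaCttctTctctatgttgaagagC
Gsta1 shared 89.7% of its 50-base transcript windows with at least 1 other gene, chiefly the predicted gene Gm3776, and Gsta2 shared 64.2%. Gstm1 and Gstm3, on chromosome 3, were identical at 89.5% of 657 aligned coding bases, and their most different single-exon window held 16 differences (Gstm1, chr3:108012692-108012751, and Gstm3, chr3:107964210-107964269, both minus strand).
Gstm1: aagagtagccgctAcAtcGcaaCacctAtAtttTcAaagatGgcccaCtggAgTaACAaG
Gstm3: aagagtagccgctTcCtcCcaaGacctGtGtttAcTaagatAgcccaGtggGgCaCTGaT
Gstm1 shared 33% of its windows with other genes and Gstm3 28.8%. Of the Gstm1 windows, 24.3% were found in Gstm2-ps1 and 15.4% in Gstm3. Gstp1 shared 62.3% with Gstp2. Gsta3, Gsta4 and Gstt1 shared none. The split of reads between Gsta1, Gsta2 and Gm3776, between Gstp1 and Gstp2, and in part between Gstm1 and Gstm3, is thus uncertain.

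In GRCm38.p6 the genes Gsta4 (78191966 to 78209349), Gsta1 (78230669 to 78242683) and Gsta2 (78331018 to 78347192) lie near each other on chromosome 9. Gstm3 (107963696 to 107969174) and Gstm1 (108012250 to 108017973) lie together on chromosome 3. Gsta3 is at 21240565 to 21265575 of chromosome 1, Gstp1 at 4035411 to 4037912 of chromosome 19 and Gstt1 at 75783813 to 75798584 of chromosome 10. Gpx1 is at 108339080 to 108340342 of chromosome 9 and Gpx2 at 76792335 to 76795554 of chromosome 12.

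The depth implied by the low values was 43010000 to 53930000 reads a library, so that 1 RPKM stands for 43 to 54 reads per kilobase, and 9953 to 10758 genes reached 1 RPKM. All 8 epithelial markers were present, at a summed 2046 to 7048 RPKM. Markers of mesenchymal cells summed to 0.715 to 6.61 RPKM with 2 of 10 at 0 in every library, those of immune cells to 0.785 to 3.89 RPKM with 2 of 10 at 0, and those of endothelial cells to at most 0.379 RPKM with 1 of 6 at 0. Red blood cell markers summed to at most 0.011 RPKM, with 2 of the 3 found at 0, and no tuft cell marker passed the filter. Across genes, all libraries of days 0 and 5 were most like the other libraries of their own day, but 10 of the 12 libraries of days 1 to 4 were most like another day. Among these, day 2 replicate 2 was closest to day 3, day 3 replicate 1 to day 4, day 3 replicate 2 to day 1, day 4 replicate 1 to day 5 and day 4 replicate 3 to day 2. Each library was compared with the mean of the other 2 libraries of its day and of all 3 of any other day. The smaller number of libraries in the first mean can favour another day. At days 1 and 2 replicates 1 and 2 are from the same line, and nothing in the labels says that lines were grown in separate experiments, so p-values measure only the spread between these libraries, which may be partly technical.

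Below, 3 values in a row are always replicates 1, 2 and 3. Changes are differences in log2(RPKM + 1), which understate the change of low genes. Adjusted p-values are from limma with Benjamini-Hochberg adjustment across the 11111 genes, and a gene is called at an adjusted p under 0.05. These are bulk values, in which fewer cells of a type and less RNA per cell cannot be told apart.

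The level of the 10 genes together rose from day 0 to day 4 in the mean and was lower at day 5. Their summed RPKM was 1449.9 ± 390.4 (SD, n = 3) at day 0, 2995 ± 756 at day 1, 5119.6 ± 1889.8 at day 4 and 2669 ± 414 at day 5, with no test made on the sum. The Mu class made up 32.1 to 38.5% of the sum at day 0, 41.8 to 61.7% at day 4 and 28.6 to 36.1% at day 5. The Alpha class made up 32.6 to 37% at day 0, 39.1 to 48.5% at day 1 and 21.4 to 24.3% at day 4, and the peroxidases 17.7 to 23.9% at day 0 and 11.8 to 31% at day 4. The Mu genes also had the largest SD of summed RPKM among the classes at days 2, 3 and 4 (1482, 1486 and 1479 RPKM).

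**Figure D1:**
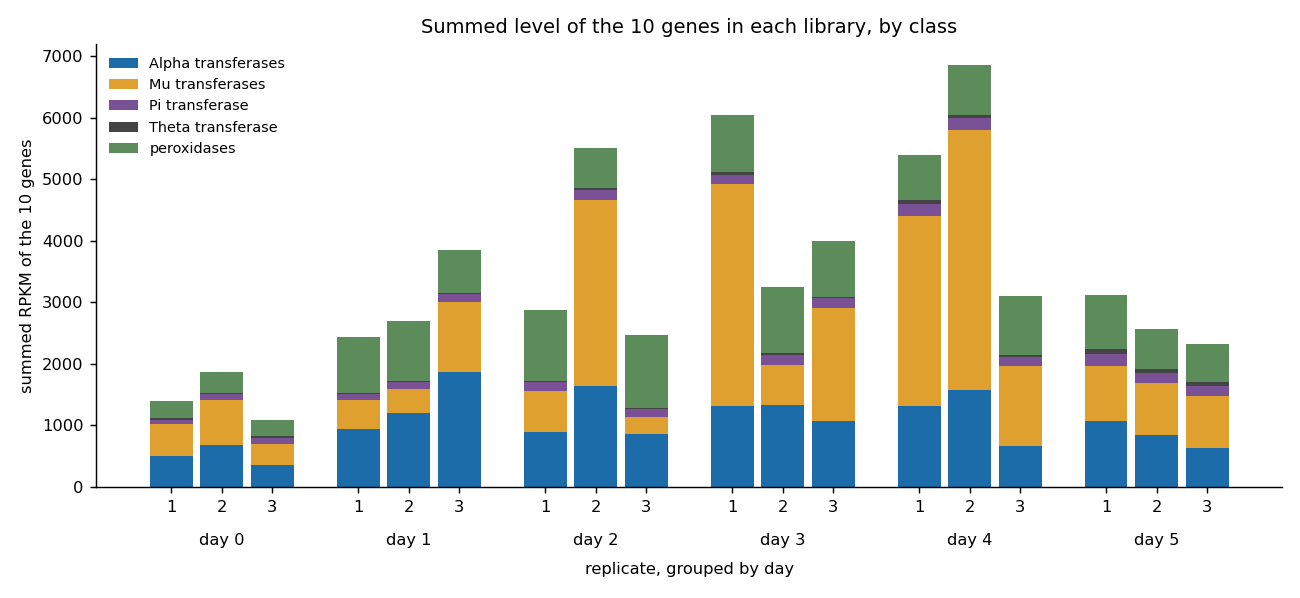
Summed RPKM of the 10 genes (y axis) in each of the 18 libraries (x axis, replicates 1 to 3 grouped by day), with each bar divided by enzyme class. The Mu class segment is tall in day 2 replicate 2, day 3 replicate 1 and day 4 replicates 1 and 2, and shorter than in these in all 3 libraries of day 5.

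Over all days, 8 of the 10 genes differed by limma's F test, beside 25.3% of all genes tested, and Gstm1 (adjusted p = 0.0738) and Gstm3 (0.15) were not called. Day 1 was higher than day 0 for 5 of the genes and lower for 0, beside 18.6% of all genes called (9.54% higher and 9.05% lower). From day 1 to day 5, 3 rose and 2 fell, beside 27.8% of all genes called (11.8% higher and 16.1% lower). Between days 0 and 5 there were 6 genes that rose and 0 that fell, beside 24.4% of all genes called (11.4% higher and 13% lower). These 3 comparisons share libraries, so their results are not independent of each other. The median change of the 10 genes was 1.05 for day 1 against day 0 (all genes 0.00), 0.70 for day 5 against day 1 (all genes -0.15) and 1.13 for day 5 against day 0 (all genes -0.17).

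The counts moved when libraries were left out, and so did the share of all genes called. Without day 0 replicate 3, 5 genes were called over all days (14.3% of all genes), and without day 2 replicate 2 all 10 were (31.4%). For day 1 against day 0, 2 genes were called without day 0 replicate 3 or without day 1 replicate 3, and 3 without day 1 replicate 2, beside 11%, 10.6% and 11.9% of all genes. For day 5 against day 1, 2 were called without day 1 replicate 2 or day 5 replicate 3, and 3 without day 1 replicate 1, day 5 replicate 1 or day 5 replicate 2, beside 13.3 to 16.3% of all genes in these 5 fits. In the 12 DNase-treated libraries alone, 3 genes were called over all days, 4 for day 1 against day 0, 3 for day 5 against day 1 and 2 for day 5 against day 0, beside 12.2%, 19%, 15.1% and 10.8% of all genes. That fit also leaves out every replicate 1 library, each of the mouse 1 line. By the titles it keeps that line only as replicate 2 of days 1 and 2. DNase treatment, line and number of libraries therefore cannot be told apart in it. The untreated libraries number 1 a day, too few for a value of their own. With the replicate number as a block, 7 genes were called for day 1 against day 0, 6 higher and 1 lower, beside 22.1% of all genes.

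The steps between later neighbouring days gave no call among the 10 genes. They called 0% of all genes from day 1 to 2, 0% from day 2 to 3, 0.036% from day 3 to 4 and 0.189% from day 4 to 5. Without adjustment, p was under 0.05 for 0, 1, 0 and 2 of the 10 genes in these steps by limma, and for 263, 48, 541 and 454 of all genes. With limma's array weights, which count variable libraries less, 5 of the genes rose from day 3 to 4 (31.2% of all genes called) and 7 fell from day 4 to 5 (13.5%). Replicates 1, 2 and 3 of day 4 had weights of 0.436, 8.56 and 0.246, so these calls rest largely on replicate 2 of that day.

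When the RPKM columns were rescaled by the median of ratios, the median change of all genes moved by 0.13 for day 5 against day 1 and by 0.17 for day 5 against day 0, and the share of called genes that were higher at day 5 than at day 0 went from 46.7% to 58.9%. Under that scaling 6 of the 10 genes still rose from day 0 to day 5 and none fell.

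**Figure D2:**
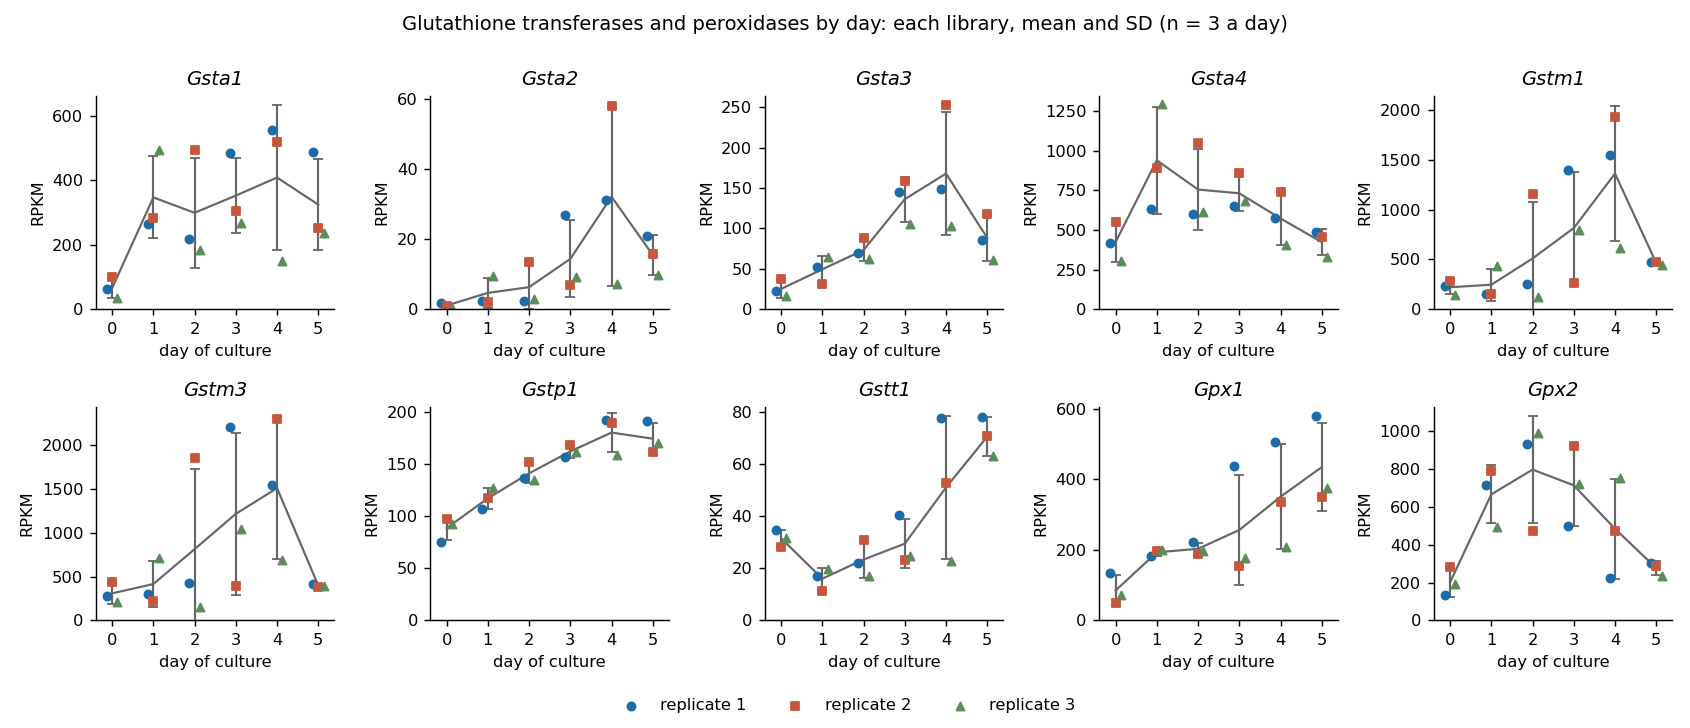
RPKM (y axes) of each of the 10 genes by day of culture (x axes); points are the 18 libraries by replicate, lines join the means and bars are the SD of 3 libraries. Gsta4 is highest at day 1 and Gpx2 at day 2, 6 genes have their highest mean at day 4, and Gpx1 and Gstt1 have theirs at day 5.

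Gsta4, which conjugates 4-hydroxynonenal, had the highest mean of the 10 genes at days 0 and 1, with ranges that overlapped those of other genes. Its level was 416, 553 and 303 RPKM at day 0 and 631, 891 and 1299 RPKM at day 1. All day 1 values lay above all day 0 values, a change of 1.13 ± 0.31 (SE, adjusted p = 0.021). Day 2 gave 601, 1052 and 615 RPKM, day 3 654, 858 and 685 RPKM, day 4 573, 743 and 403 RPKM and day 5 486, 454 and 332 RPKM. All day 5 values lay below all day 1 values (change -1.11 ± 0.31, adjusted p = 0.0198), and the day 5 range lay within that of day 0 (change 0.02, 95% interval -0.64 to 0.69). The rise at day 1 was not called without day 0 replicate 3 (adjusted p = 0.102), day 1 replicate 2 (0.0563) or day 1 replicate 3 (0.106). The fall to day 5 was not called without day 1 replicate 2 (0.0532), day 1 replicate 3 (0.0709) or day 5 replicate 3 (0.0741), nor with median-of-ratios rescaling (0.0664), and its F test (adjusted p = 0.0466) lost the call in 17 of 28 alternatives.

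Gsta1, an Alpha transferase with peroxidase activity, rose from 61.6, 98.8 and 36.2 RPKM at day 0 to 264, 285 and 494 RPKM at day 1. The groups did not overlap, with means of 65.5 ± 31.5 and 347 ± 127 RPKM (SD, n = 3) and a change of 2.44 ± 0.52 (adjusted p = 0.00482), the largest among the 10 genes in that comparison. Thereafter its level spread widely within days. It was at 219, 496 and 184 RPKM at day 2, at 486, 305 and 269 RPKM at day 3, at 558, 519 and 150.5 RPKM at day 4 and at 488, 251 and 235 RPKM at day 5. Each later library was above all 3 of day 0, and day 5 was higher than day 0 by 2.32 ± 0.52 (adjusted p = 0.00802). In the DNase-treated libraries alone that change was 2.00 and was not called (adjusted p = 0.0801).

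Because of the shared sequence, Gsta1 was also read together with its copies. Gsta1, Gsta2, Gm3776 and Gm10639 summed to 37.6 to 102 RPKM at day 0, 284 to 547 RPKM at day 1 and 272 to 566 RPKM at day 5. Gsta1 made up 72.4 to 97.1% of this sum over the 18 libraries, with its lowest share at day 4. All day 0 sums thus lay below all day 1 and day 5 sums. RPKM are scaled by gene length, and reads dropped or counted for genes outside this sum are not seen in it. The sum therefore does not cover every way in which shared reads may have been treated.

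Gsta2 had the lowest mean of the 10 genes on every day. It was at 1.78, 1.02 and 0.331 RPKM at day 0, at 2.43, 2.03 and 9.5 RPKM at day 1 and at 2.48, 13.6 and 2.83 RPKM at day 2. It then reached 27, 6.86 and 9.26 RPKM at day 3 and 31.3, 58.2 and 7.07 RPKM at day 4, and was at 21, 15.7 and 9.81 RPKM at day 5. Day 5 lay above day 0 without overlap, by 3.02 ± 0.73 (adjusted p = 0.0113), but the call was lost without day 5 replicate 1 (0.055) and with DNase-treated libraries only (3.03, adjusted p = 0.0684). Its day 1 values also lay above those of day 0 without passing the test (1.29 ± 0.73, adjusted p = 0.235).

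Gsta3, an Alpha transferase known for conjugating aflatoxin in mice, climbed steadily in the mean until day 4. It was at 22, 37.5 and 15.7 RPKM at day 0, at 52.7, 31.1 and 64.3 RPKM at day 1 and at 70.0, 87.9 and 61.5 RPKM at day 2. It was at 145, 158 and 105 RPKM at day 3, at 148, 252 and 103 RPKM at day 4 and at 85.8, 117 and 61.1 RPKM at day 5. Days 2 and 3 did not overlap, but that step was not called (0.88 ± 0.37, adjusted p = 0.9998). Day 5 was higher than day 0 by 1.81 ± 0.37 (adjusted p = 0.00453). Among DNase-treated libraries the change was 1.76, not called (adjusted p = 0.0733). With the replicate number as a block its rise at day 1 (0.98) was called at an adjusted p of 0.0432, against 0.076 without the block.

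Gstm3 and Gstm1, the Mu class genes, spread widely between libraries of the same day at days 2 and 3, where their highest value exceeded their lowest by a larger factor than for any other of the 10 genes. Gstm1 was at 234, 282 and 145 RPKM at day 0 and at 155, 151 and 432 RPKM at day 1. At day 2 it was at 249, 1160.2 and 119 RPKM, and at day 3 at 1396, 259.7 and 792 RPKM. At day 4 it was at 1546, 1933 and 612 RPKM, and at day 5 at 474, 474 and 444 RPKM. The highest day 2 value was 9.76 times the lowest, while the 3 day 5 values differed by 1.07 times.

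Gstm3 followed Gstm1 closely. It was at 283, 436 and 204 RPKM at day 0, at 304, 227 and 714 RPKM at day 1 and at 426, 1857 and 154 RPKM at day 2. It was at 2208, 391 and 1046 RPKM at day 3, at 1542, 2297 and 685 RPKM at day 4 and at 419, 379 and 394 RPKM at day 5. The same libraries were high for both genes, namely day 1 replicate 3, day 2 replicate 2, day 3 replicate 1 and day 4 replicates 1 and 2. All 3 day 4 values of each gene were above all 3 of day 5, yet the drop did not pass the test (Gstm1 -1.40 ± 0.73 and Gstm3 -1.76 ± 0.77, adjusted p = 0.9998 for both). Their F tests depended on single libraries. Gstm1 was called without day 2 replicate 2 (adjusted p = 0.015), day 3 replicate 2 (0.0365) or day 4 replicate 3 (0.0374), and Gstm3 without day 2 replicate 2 (0.0366).

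Over the 18 libraries log2 levels of Gstm1 and Gstm3 had a Pearson correlation of 0.956, and 0.989 after each day's mean was removed, given as a description of libraries that share days and lines. The ratio of their levels was less variable than either level. Gstm1 was at 0.646 to 0.824 of Gstm3 at day 0 and at 0.509 to 0.665 at day 1. It was at 0.841 to 1.00 at day 4 and at 1.12 to 1.25 at day 5, the only day on which Gstm1 exceeded Gstm3 in all 3 libraries. Of the Gstm1 windows 15.4% are found in Gstm3, and of the Gstm3 windows 9.83% in Gstm1. The part of shared reads in the correlation and the ratio was not tested.

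**Figure D3:**
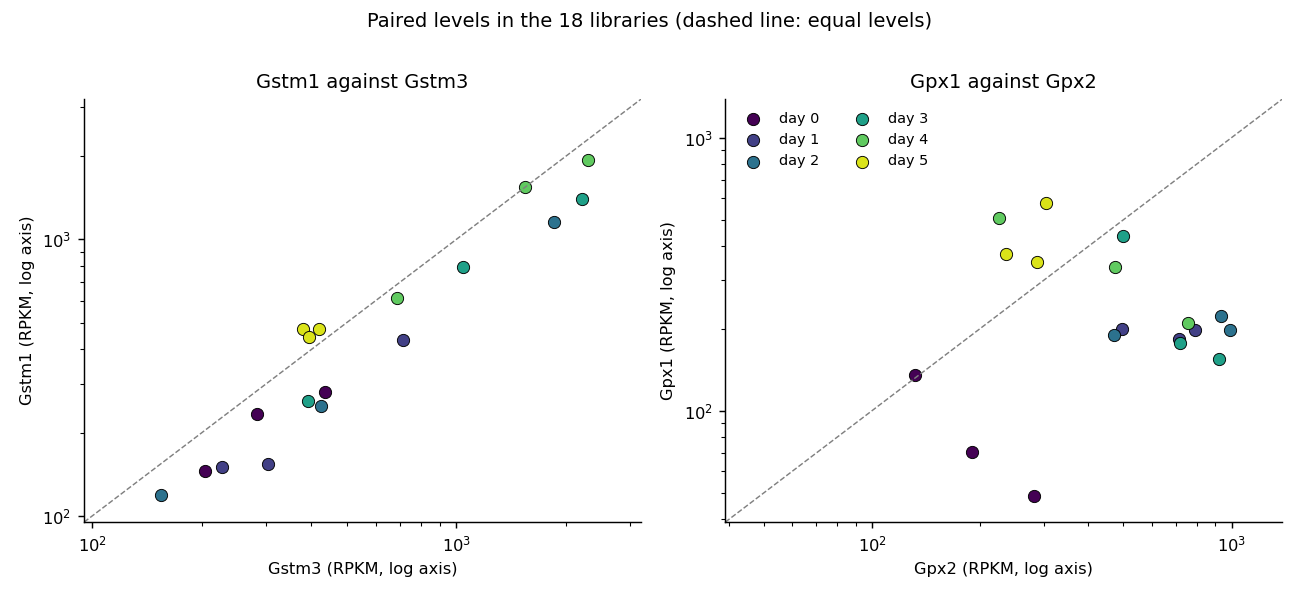
Level of Gstm1 against Gstm3 (left) and of Gpx1 against Gpx2 (right) in the 18 libraries, in RPKM on log axes, coloured by day, with a dashed line of equal levels. The Mu genes lie along a narrow band with day 5 above the line, whereas the peroxidases form no band and all 3 day 5 libraries lie above the line.

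Gstp1, the Pi class enzyme and the least variable of the 10 genes, rose gradually. It was at 75.4, 97.4 and 92.6 RPKM at day 0, at 107, 118 and 127 RPKM at day 1 and at 136, 152 and 135 RPKM at day 2. It was at 156, 168 and 161 RPKM at day 3, at 192, 189.6 and 159 RPKM at day 4 and at 191, 161 and 170 RPKM at day 5. The values of days 0, 1, 2 and 3 did not overlap between neighbouring days, and the highest value of all was 2.54 times the lowest.

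Gstp1 was higher at day 5 than at day 0 by 0.97 ± 0.13 (adjusted p = 0.000331) and higher at day 5 than at day 1 by 0.57 ± 0.13 (adjusted p = 0.00852). The call for day 5 against day 0 held in all 29 alternatives. The first step, day 1 against day 0, was called narrowly (0.40 ± 0.13, adjusted p = 0.046) and lost in 19 of 29 alternatives, with adjusted p = 0.311 under quantile normalization, 0.163 without day 0 replicate 1 and 0.162 without day 1 replicate 3. In the DNase-treated libraries the change from day 1 to day 5 was 0.44 and was not called (adjusted p = 0.0725). Summed with its neighbour Gstp2, the level was 85.5 to 120.5 RPKM at day 0 and 189 to 215 RPKM at day 5, again without overlap.

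Gstt1, the Theta class enzyme, was the gene with its lowest level at day 1. It stood at 34.8, 28.4 and 31.6 RPKM at day 0 and at 17.1, 11.3 and 19.7 RPKM at day 1. It was at 22.1, 31.1 and 17.1 RPKM at day 2, at 40.5, 23.2 and 24.8 RPKM at day 3 and at 77.9, 52.8 and 22.7 RPKM at day 4. At day 5 it was at 78.2, 70.8 and 63.2 RPKM. All day 1 values were below all day 0 values, but the difference of -0.97 ± 0.35 missed the threshold (adjusted p = 0.0678). It was called in 8 of 29 alternatives, among them those with the replicate number as a block (0.0455), with array weights (0.00262), without day 4 replicate 1 (0.0353) and without day 4 replicate 3 (0.0154).

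From day 1 to day 5 Gstt1 rose by 2.10 ± 0.35 (adjusted p = 0.00137), the largest change of the 10 genes in that comparison, and the call held in all 29 alternatives. Day 5 was also above day 0 without overlap, by 1.14 ± 0.35 (adjusted p = 0.0304). That call was lost when any of day 0 replicates 1, 2 and 3 was left out (adjusted p = 0.0522, 0.0894 and 0.0749) or day 5 replicate 1 or 2 (0.106 and 0.0725), with no filter (0.0506), with quantile normalization (0.062) and with DNase-treated libraries only (1.13, adjusted p = 0.0895).

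Gpx1, the ubiquitous cytosolic peroxidase, rose throughout in the mean. It was at 135, 48.9 and 70.8 RPKM at day 0, at 183, 197 and 199 RPKM at day 1 and at 222, 189 and 198 RPKM at day 2. It was at 437, 155 and 176 RPKM at day 3, at 506, 336 and 209 RPKM at day 4 and at 578, 350.1 and 375 RPKM at day 5. Days 1 and 2 were tight and days 3 and 4 wide, with replicate 1 the highest on every day except day 1.

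Gpx1 rose from day 0 to day 5 by 2.43 ± 0.40 (adjusted p = 0.00139), without overlap and in all 29 alternatives. The step to day 1 was 1.30 ± 0.40 (adjusted p = 0.0358). It was not called when any of day 0 replicates 2 and 3 and day 1 replicates 1, 2 and 3 was left out (adjusted p = 0.159, 0.106, 0.0673, 0.0889 and 0.0963). The call was also lost with no filter (0.0611) and with median-of-ratios rescaling (0.053). In the DNase-treated libraries the step was called (1.73, adjusted p = 0.00252). Day 5 against day 1 was borderline (1.13 ± 0.40, adjusted p = 0.0486). Of the 18 single libraries 12 ended that call when left out, the adjusted p reaching 0.165 without day 5 replicate 1. So did no filter (0.0877) and quantile normalization (0.095).

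Gpx2, the gastrointestinal peroxidase, rose and then fell. It was at 132, 282 and 189.9 RPKM at day 0, at 714, 789 and 495 RPKM at day 1 and at 931, 471 and 989 RPKM at day 2. It was at 498, 923 and 721 RPKM at day 3, at 226, 473 and 755 RPKM at day 4 and at 305, 287 and 237 RPKM at day 5. The rise at day 1 was 1.76 ± 0.41 (adjusted p = 0.0078) without overlap, and every leave-one-out fit called it, while quantile normalization did not (adjusted p = 0.0538).

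From day 1 to day 5 Gpx2 fell by 1.25 on the log2 scale (SE 0.41, adjusted p = 0.0349), again without overlap. The call was lost without day 1 replicate 1 or 2 (adjusted p = 0.101 and 0.11), without day 5 replicate 1, 2 or 3 (0.0698, 0.0717 and 0.0969) and with DNase-treated libraries only (-1.26, adjusted p = 0.065). With no filter it was lost as well (0.0701). The ranges of days 0 and 5 overlapped, with a change of 0.52 and a 95% interval of -0.35 to 1.38.

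**Figure D4:**
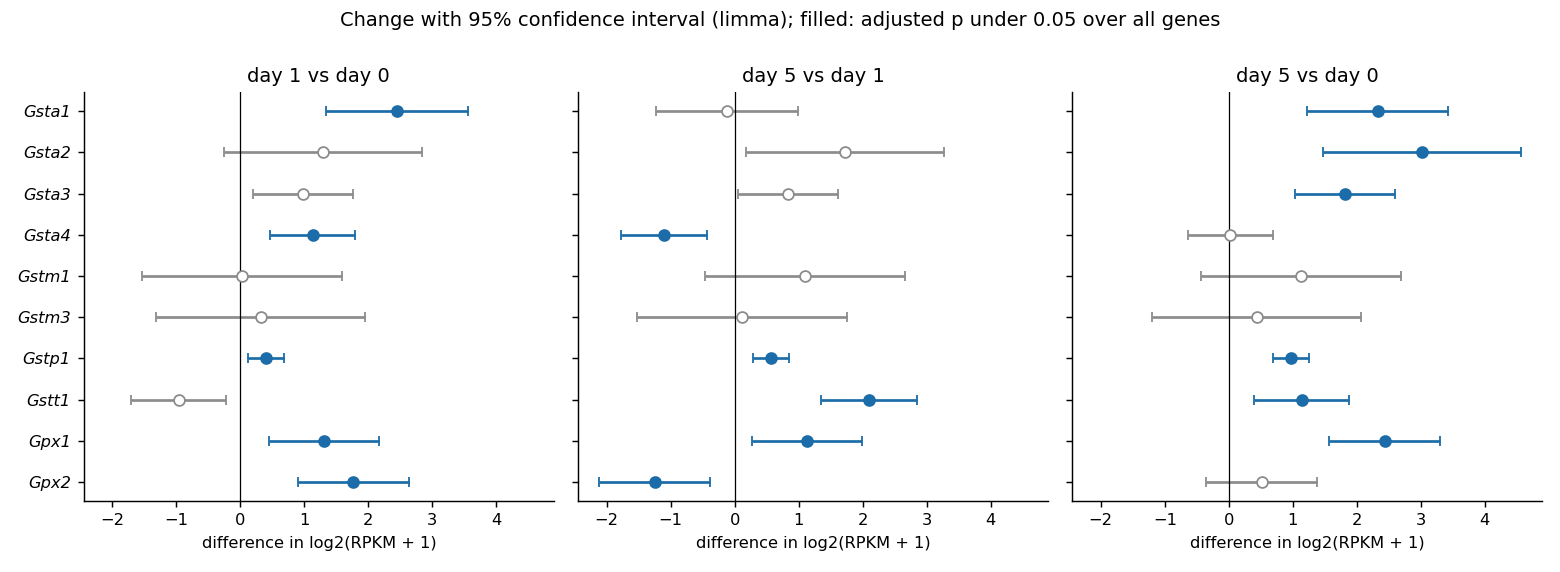
Difference in log2(RPKM + 1) (x axes) of the 10 genes between day 1 and day 0, day 5 and day 1, and day 5 and day 0, with 95% confidence intervals from limma over 18 libraries; filled points have an adjusted p under 0.05. Gsta4 and Gpx2 lie right of 0 in the first panel and left of 0 in the second, while Gstt1 does the opposite, its first value not being called.

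The balance of the 2 peroxidases turned over the time course. Gpx1 was at 0.256, 0.25 and 0.402 of Gpx2 at day 1 and at 1.9, 1.22 and 1.58 of Gpx2 at day 5. At day 0 it was at 1.02, 0.174 and 0.373, so that replicate 1 stood apart from the others, and at day 4 the libraries ranged from 0.277 (replicate 3) to 2.24 (replicate 1). After each day's mean was removed, the correlation of Gpx1 and Gpx2 over the 18 libraries was -0.68, against 0.04 with the days left in. This did not hold on every day, since at day 5 replicate 1 was the highest for both genes.

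Levels of the 10 genes could be ranked within each day, since RPKM are per length. At day 0 the mean order was Gsta4, Gstm3, Gstm1, Gpx2, Gstp1, Gpx1, Gsta1, Gstt1, Gsta3 and Gsta2. At day 4 Gstm3 and Gstm1 led with 1508 ± 807 and 1364 ± 679 RPKM (SD, n = 3), with overlapping ranges. At day 5 the first 4 were Gstm1 (464 ± 17.4), Gpx1 (434 ± 125), Gsta4 (424 ± 81.1) and Gstm3 (398 ± 20.5 RPKM), which did not differ beyond their spread except that all 3 Gstm1 values exceeded all 3 Gstm3 values. Gstp1, Gsta3, Gstt1 and Gsta2 were the last 4, in that order, on each of days 1 to 5.

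Levels of cell type markers were read over the same days. The counts stand beside 18.6% of all genes called from day 0 to day 1 (9.54% higher and 9.05% lower). That share was 27.8% from day 1 to day 5 (11.8% and 16.1%) and 24.4% from day 0 to day 5 (11.4% and 13%). Of 20 enterocyte markers, 5 rose from day 0 to day 1, 7 from day 1 to day 5 and 16 from day 0 to day 5, and none fell. Their summed level was 2109 to 2946 RPKM at day 0, 4139 to 10062 RPKM at day 1, 6072 to 39046 RPKM at day 4 and 24719 to 30653 RPKM at day 5. Of 13 genes found that mark fetal or regenerating epithelium, 10 passed the filter, and all 10 rose from day 0 to day 1. Genes under 1 RPKM at day 0 could pass the filter only through later days, which favours such a count. Of the 10, 3 fell from day 1 to day 5. The 13 genes summed to 13.1 to 97.1 RPKM at day 0, 868 to 2018 RPKM at day 1 and 189.7 to 918 RPKM at day 5. Of 13 stem cell markers tested, 1 rose and 3 fell from day 0 to day 1, and 1 rose and 2 fell from day 1 to day 5. Of 11 Paneth cell markers 10 rose from day 1 to day 5, as did 11 of 11 goblet cell markers, and 9 of 11 of each list rose from day 0 to day 5. Of 12 enteroendocrine markers, 1 rose and 1 fell from day 1 to day 5. From day 1 to day 5 the shares of enteroendocrine and of stem cell markers called were below that of all genes. The part of such markers in the changes of the 10 genes was not tested.

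The 10 genes differed in how they went with these markers between libraries of the same day. With each day's mean removed, the correlation with the mean enterocyte marker level over the 18 libraries was 0.89 for Gstm1, 0.87 for Gsta2, 0.86 for Gstt1, 0.85 for Gstm3 and 0.83 for Gsta1. It was 0.61 for Gpx1, 0.53 for Gsta4, 0.42 for Gstp1 and 0.37 for Gsta3. Gpx2 alone was negative, at -0.85, and it was positive, at 0.86, with the stem cell markers, with which the other 9 genes were negative (-0.16 to -0.82). Single days could differ from this, and at day 5 the library with the highest enterocyte marker level, replicate 1, also had the highest Gpx2 level. These are descriptions over libraries that share days and lines.

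The genes most like each of the 10 were sought among 7148 other genes with a mean of at least 5 RPKM, by the Pearson correlation of log2 levels over the 18 libraries. Gsta1 was most like Lipa, the lysosomal acid lipase (0.98), then the enterocyte alkaline phosphatase Alpi (0.95) and the ferritin gene Fth1 (0.95). Gsta2 was most like the retinal dehydrogenase Aldh1a1, the membrane transferase Mgst2 and the carbonyl reductase Cbr3 (each 0.96). Gsta3 was most like Ugdh, which makes UDP-glucuronic acid (0.92), the quinone reductase Nqo1 (0.91) and Cbr3 (0.90). Gsta4 was most like Mettl7b (0.90), Pgm1 (0.90) and Ttc22 (0.87).

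Gstm1 was most like the decarboxylase gene Ddc (0.97), Gstm4 (0.93) and the cytochrome P450 gene Cyp2b10 (0.93), and Gstm3 like Cyp2b10 (0.90), Ddc (0.89) and Ahcyl2 (0.89). Gstp1 was most like the Omega class transferase Gsto1 (0.95), Acads (0.93) and Nit1 (0.93). Gstt1 was most like catalase, Cat (0.97), the carboxylesterase Ces2e (0.96) and Acy3, an aminoacylase that acts on mercapturates (0.96). Gpx1 was most like Rassf3, Nab2 and Gde1 (0.94, 0.94 and 0.93), and Gpx2 like the lysosomal glucuronidase gene Gusb (0.95), Syngr2 (0.94) and the proteasome gene Psmb5 (0.94). Cat stood at 82.5 ± 7.69 RPKM at day 0, 40.7 ± 11.8 RPKM at day 1 and 195 ± 11.3 RPKM at day 5, and Gstt1 had the same order over these 3 days.

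The list of other cytosolic transferases also held Gstk1, of the mitochondrial Kappa class, and 12 of the 16 genes found passed the filter. Counts of this and all later lists stand beside the shares of all genes called. These were 18.6% from day 0 to day 1, 27.8% from day 1 to day 5 and 24.4% from day 0 to day 5. At day 1 against day 0 only Gstk1 was called (1.58 ± 0.48, from 6.16 to 22.3 RPKM), so that no cytosolic transferase of the list was. Between days 0 and 5, 6 rose and none fell, with a median of 0.98 beside -0.17 for all genes. The largest changes were those of Gstm4 (2.36 ± 0.71, from 7.31 to 42 RPKM), Gstk1 (1.78 ± 0.48), Gstm7 (1.57 ± 0.48) and Gstt3 (1.25 ± 0.26, from 24.2 to 58.4 RPKM). From day 1 to day 5, 5 rose, led by Gstm7 (2.48 ± 0.48), Gstm6 (2.32 ± 0.53) and Gstt3 (1.80 ± 0.26), and Gstcd, which carries a transferase-like domain, fell (-0.83 ± 0.25). Unlike Gstm1 and Gstm3, these Mu genes thus passed the test in the fit of all 18 libraries. Whether they differ from Gstm1 and Gstm3 was not tested. All day 5 values of Gstm1 lay above those of day 0 (1.12 ± 0.73, limma adjusted p = 0.251) and day 1 (1.10 ± 0.73, 0.261). With only the 2 days compared, both changes were called (0.0107 and 0.0434). Array weights called the first (0.0294). For Gstm3 the ranges overlapped in both comparisons (0.44 and 0.12).

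Of the 4 membrane-bound transferases and relatives tested, 3 were higher at day 5 than at day 0. They were Mgst2 (2.33 ± 0.54, from 69.2 to 347 RPKM), Mgst3 (1.16 ± 0.32, from 286 to 649 RPKM) and the leukotriene C4 synthase gene Ltc4s (1.19 ± 0.36, from 0.857 to 3.23 RPKM). Mgst1 rose from day 1 to day 5 (2.05 ± 0.47, from 117 to 474 RPKM), as did Ltc4s, and none of the 4 was called at day 1. Of 6 further peroxidase genes only Gpx4, which reduces lipid hydroperoxides within membranes, passed the filter. It rose from day 0 to day 1 (1.03 ± 0.28, from 4.9 to 11.1 RPKM) and was higher at day 5 than at day 0 (1.48 ± 0.28, at 15.6 RPKM).

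All 16 genes of glutathione synthesis, reduction and NADPH supply were tested. Of these, 5 rose and 1 fell from day 0 to day 1. The largest changes were those of Me1, malic enzyme (1.34 ± 0.35), Gss, glutathione synthetase (1.33 ± 0.15, from 57.8 to 147 RPKM), G6pdx, glucose-6-phosphate dehydrogenase (1.03 ± 0.19, from 34.9 to 72 RPKM), and Cbs, cystathionine beta-synthase, which fell (-0.75 ± 0.20, from 1.27 to 0.337 RPKM). From day 1 to day 5, 3 rose and 3 fell. Cth, which makes cysteine from cystathionine, rose (1.80 ± 0.47), as did Idh1, an NADPH-forming dehydrogenase (1.37 ± 0.37), while Slc7a11, the cystine importer, fell (-1.42 ± 0.43, from 3.47 to 0.698 RPKM), as did G6pdx (-0.96 ± 0.19). Day 5 was above day 0 for 6 and below it for none, with a median of 0.36, led by Me1 (1.73 ± 0.35), Idh1 (1.55 ± 0.37), the glutaredoxin gene Glrx (0.77 ± 0.25) and Gclm, the modifier subunit of glutamate-cysteine ligase (0.70 ± 0.24).

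The genes that break down glutathione and process its conjugates held the largest changes among these lists. Between days 0 and 5, 5 of 11 tested rose and none fell, with a median of 0.69. Ggt1, the gamma-glutamyltransferase of the cell surface, went from 0.786 to 66.7 RPKM (5.15 ± 0.90). Dpep1, the dipeptidase that acts after it, went from 1.67 to 54 RPKM (4.22 ± 0.91), Nat8, which acetylates cysteine conjugates, from 4.87 to 54.2 RPKM (3.19 ± 0.70), and the dipeptidase Cndp2 from 26.5 to 144 RPKM (2.40 ± 0.38). Apart from Cndp2 these also rose from day 1 to day 5 (Ggt1 by 4.41 ± 0.90, Dpep1 by 3.56 ± 0.91 and Nat8 by 2.89 ± 0.70), with Ggt6 (0.59 ± 0.16). At day 1, Cndp2 (1.54 ± 0.38), Lap3 (0.89 ± 0.15) and Ggct (0.71 ± 0.21) were already above day 0. Anpep of this list is also among the enterocyte markers.

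Of 5 glyoxalases and related users of glutathione, 3 rose from day 0 to day 1, namely the persulfide dioxygenase gene Ethe1 (1.72 ± 0.33), Esd (0.94 ± 0.23) and Glo1, glyoxalase 1 (0.71 ± 0.13). From day 0 to day 5 Hagh, glyoxalase 2 (2.04 ± 0.44, from 15.6 to 68.5 RPKM), Ethe1 (1.42 ± 0.33) and Glo1 (0.52 ± 0.13) rose, and from day 1 to day 5 Hagh (1.74 ± 0.44) and Adh5 (0.41 ± 0.14). None of 6 tested genes for conjugate export was called from day 0 to day 1 or from day 0 to day 5, and Abcc1, the multidrug resistance protein that exports glutathione conjugates, fell from day 1 to day 5 (-1.52 ± 0.37, from 11.5 to 3.51 RPKM).

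Other peroxide-removing systems, such as catalase, peroxiredoxins and thioredoxins, changed in part. Of 14 genes tested, 5 rose and 1 fell from day 0 to day 1, led by Srxn1, sulfiredoxin (1.69 ± 0.43), and Prdx6, a peroxiredoxin that uses glutathione (1.01 ± 0.16), with Prdx4 of the endoplasmic reticulum lower (-0.90 ± 0.25). From day 1 to day 5, 3 rose and 3 fell. Cat rose (2.27 ± 0.41), while the mitochondrial Prdx3 (-0.79 ± 0.21) and Txn2 (-0.75 ± 0.18) fell. Between days 0 and 5, 6 rose and none fell, led by Prdx5 (1.48 ± 0.27) and Cat (1.23 ± 0.41).

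**Figure D5:**
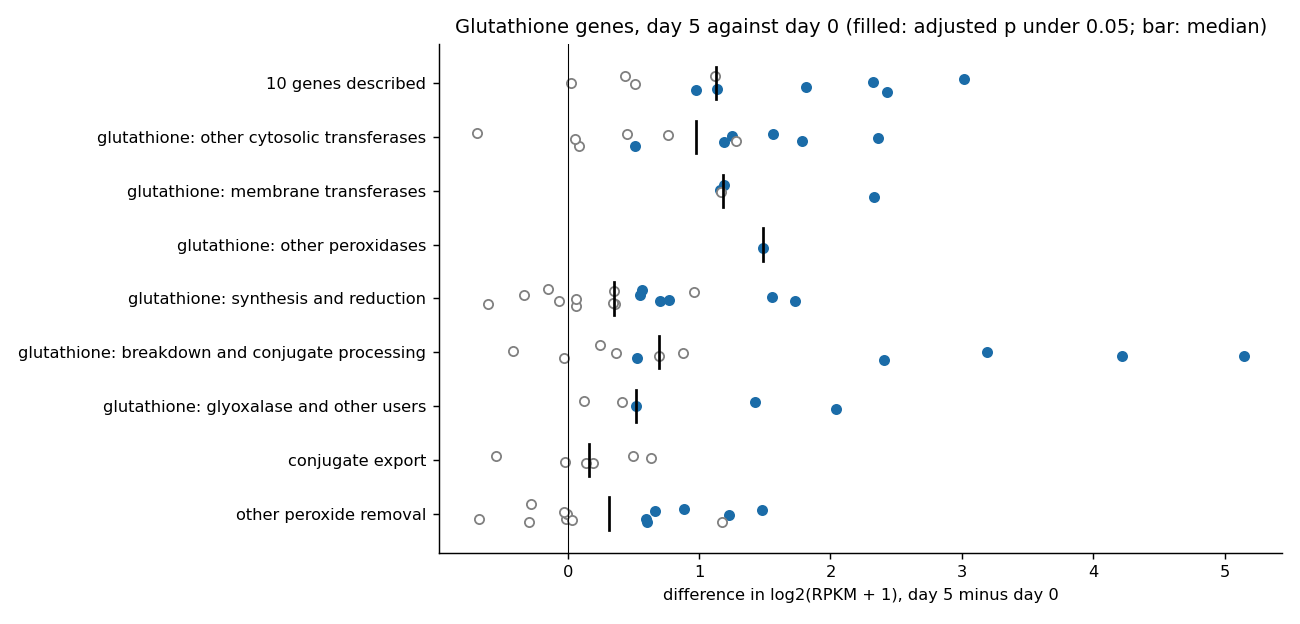
Difference in log2(RPKM + 1) between day 5 and day 0 (x axis) for each tested gene of the 10 genes described and of 8 lists of related genes (y axis); filled points have an adjusted p under 0.05 from limma and vertical bars mark medians. The 4 points beyond 2.4 in the list of breakdown and conjugate processing are Cndp2, Nat8, Dpep1 and Ggt1, and no point of conjugate export is filled.

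Of 13 transcription regulators known to act on such genes, 12 were tested, and those not called in any of these 3 comparisons included Nfe2l2, Keap1, Mafg, Mafk, Ahr and Nr1i2. At day 1 only Arnt was called, lower (-0.47 ± 0.12). At day 5 against day 0, Nr1i3, the xenobiotic receptor CAR, was higher (1.49 ± 0.50, from 10.2 to 31.3 RPKM), and Bach1 (-0.47 ± 0.16) and Arnt (-0.36 ± 0.12) were lower. Nr1i3 also rose from day 1 to day 5 (1.77 ± 0.50).

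The 250 bases before the start site were searched on both strands in the RefSeq promoters (GRCm38.p6) of the 9 genes that the table holds, for the core of the antioxidant response element (TGACNNNGC), the AP-1 site (TGANTCA), the TATA box (TATAAA) and the GC box (GGGCGG). Of 32851 promoters of this length, 10.2% held the first, 6.75% the second, 12.4% the third and 32.7% the last. The first was found only in Gsta3, 121 bases before the start, and the second only in Gstp1, 74 bases before it. TATAAA was found in Gsta2 (246 bases before, on the opposite strand) and at the downstream start of Gstm1 (30 bases before), and GGGCGG in Gstm3 (74 bases before) and Gstp1 (60 bases before). The stretches of Gsta3 (chr1:21240455-21240584, plus strand) and Gstp1 (chr19:4037913-4038002, minus strand) are shown, since they hold the matches to the first 2 of these motifs, with the match in capitals and the start site just after the last base.
Gsta3: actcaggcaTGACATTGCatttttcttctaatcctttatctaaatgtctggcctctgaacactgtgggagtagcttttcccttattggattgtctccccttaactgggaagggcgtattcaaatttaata
Gstp1: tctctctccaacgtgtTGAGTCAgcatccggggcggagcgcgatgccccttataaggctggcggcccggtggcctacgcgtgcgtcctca
These matches are descriptions of the sequence, and the files hold no measurement of binding there.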

How the data were processed

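Poly(A) RNA of 18 organoid libraries was sequenced, with 30 wells pooled per library. The authors deposited 1 table of RPKM values. Per the submitters' processing notes the build was mm10 and the tools included STAR 2.5.2b, edgeR 3.20.5 and bcl2fastq 2.17, without their roles. The sources used here do not give the annotation, the strand setting or the treatment of multiply mapping reads.

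Values were analysed as log2(RPKM + 1) in limma 3.58.1 (R 4.3.3) with 1 coefficient per day over all 18 libraries and a mean-variance trend. Genes at 1 RPKM or more in at least 3 libraries were kept. Tests were two-sided, with Benjamini-Hochberg adjustment over the genes kept and calls under 0.05. The code was tested on simulated data. A single-gene exact permutation test of 3 against 3 libraries cannot go below p = 0.1 and was not used. No columns were left out. Depth was read from the steps of low RPKM values (tolerance 0.02 reads).

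The genes named are the 10 described, up to 4 called genes per related list and comparison with the largest change, and the 3 genes most like each of the 10. Members and lists were chosen with earlier results of these data known. Alternatives were another pseudocount (0.1), no filter or one at 5 RPKM, median-of-ratios or quantile scaling, array weights, the replicate number or the mouse as a factor, DNase-treated libraries only, only the days compared, and leaving out each library. Leaving out 3 libraries that stand apart (day 0 replicate 1, day 3 replicate 2 and day 4 replicate 3) was chosen after seeing the data. Replicate numbers name the same mouse in the titles except for replicate 2 at days 1 and 2; deviations from the day means of same-numbered libraries correlated at a median of 0.17 over 45 pairs (-0.643 to 0.806), against -0.081 for other pairs.

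Coding sequences are from GENCODE on GRCm38 and promoters from RefSeq (GRCm38.p6), which held 9 of the 10 genes.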

Additional observations from a re-analysis of the deposited data

How the results depend on the processing

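The pseudocount of 0.1 and the filter at 5 RPKM changed no direction or call of the 10 genes. DNase-treated libraries alone called 3 genes over all days, 3 for day 5 against day 1 and 2 for day 5 against day 0 (12.2%, 15.1% and 10.8% of all genes). Median-of-ratios scaling called 3 for day 1 against day 0 (20.4%), and the table without a filter called 3 for day 5 against day 1 (14.8%). Array weights ranged from 0.246 (day 4 replicate 3) to 8.56 (day 4 replicate 2). They called 5 for day 4 against day 3 (31.2%) and 7 for day 5 against day 4 (13.5%), and 81.8% of all genes over all days. Leaving out 1 library gave 5 to 10 calls over all days, 2 to 6 for day 1 against day 0, 2 to 6 for day 5 against day 1 and 4 to 6 for day 5 against day 0, beside 14.3 to 45.5%, 10.6 to 21.7%, 13.3 to 35.7% and 7.74 to 32% of all genes. The cause was not tested. The replicate block gave 8, 7, 5 and 6 calls in these 4 comparisons (31.7%, 22.1%, 32.8% and 30.4% of all genes), and apart from Gsta3 and Gstt1 at day 1 it changed no other call. Leaving out 3 libraries together, chosen after seeing the data, gave 8, 5, 6 and 6 (43.7%, 20.9%, 38.4% and 29.2%).

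Directions turned only for changes that were not called. Gsta1 at day 5 against day 1 was 0.037 with median-of-ratios scaling and -0.45 to 0.16 when 1 library was left out. Gsta4 at day 5 against day 0 was -0.59 with quantile normalization, -0.025 with array weights, -0.076 in DNase-treated libraries and -0.20 to 0.24 when 1 library was left out. Gstm1 at day 1 against day 0 was -0.28 with quantile normalization, -0.10 with mouse as a factor, -0.029 with array weights and -0.47 to 0.28 when 1 library was left out. Gstm3 at day 1 was -0.014 with quantile normalization and -0.16 to 0.67 when 1 library was left out. Gstm3 at day 5 against day 1 was -0.16 with quantile normalization, -0.058 in DNase-treated libraries and -0.23 to 0.60 when 1 library was left out. With quantile normalization, day 5 against day 0 was -0.18 for Gstm3 and -0.047 for Gpx2. Depth bears most on Gsta2 at day 0, whose 0.331 to 1.78 RPKM were the lowest values of the 10 genes, at 43 to 54 reads per kilobase for 1 RPKM.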

Other observations

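Gpx1 and Gpx2 need the machinery that inserts selenocysteine, and genes of selenoprotein synthesis and other selenoproteins were read as a list. Of 29 symbols listed, 15 were found and 14 were tested. None of the 14 was called for day 1 against day 0 by limma, when both peroxidases rose. Between days 1 and 5, 4 rose and none fell. They were Sepp1, the secreted selenium carrier (3.19 ± 0.69, SE, from 22.4 to 194 RPKM), Selm (1.26 ± 0.29), Selo (1.06 ± 0.15) and Msrb1, a methionine sulfoxide reductase (0.61 ± 0.16). Between days 0 and 5, 5 rose and none fell. The largest 4 were Selm (1.28 ± 0.29), Sepw1 (1.09 ± 0.33), Selo (0.72 ± 0.15) and Sephs2, which makes the selenium donor (0.68 ± 0.20, from 118 to 184 RPKM). Their median change was 0.20 between days 0 and 5, beside -0.17 for all genes.

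Of 5 nuclear long noncoding RNAs, 2 were tested and none was called in these comparisons. The 5 summed to 38.5, 23.7 and 21.9 RPKM at day 0, 17.8, 80 and 81.7 RPKM at day 1 and 3.8, 34.4 and 44.2 RPKM at day 5. On each of days 1 to 5 replicate 1, not treated with DNase, was the lowest, while at day 0 it was the highest. At days 1 and 2 replicates 1 and 2 are both of the mouse 1 line by the titles. Their sums were 17.8 and 80 RPKM at day 1 and 8.48 and 56.8 RPKM at day 2, with 1 library each. On the other days DNase treatment and line cannot be told apart, and the part of DNase treatment was not tested. Of 6 replication histone genes 1 was tested, and Hist1h4i was lower at day 5 than at day 1 (-1.01 ± 0.26, SE).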
